A study of Rattus norvegicus with 93 samples.

Results

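Potassium channel genes, taken as every gene of the expression table whose symbol starts with Kcn followed by a letter, were followed across libraries of the rostromedial tegmental nucleus (RMTg) of rats. The table held 95 such genes among 38354, and 77 of the 95 reached a level of at least 1 count per 1000000 counts (CPM) in at least 20% of the libraries used. The symbols cover pore-forming subunits, their accessory subunits and Kcnrg, a regulator of channel assembly, and they were grouped by the letter after Kcn. The RMTg is a small group of inhibitory brainstem neurons that restrains the dopamine neurons of the midbrain, and the series was collected for a genetic study of avoidance learning in addiction. All samples form 1 group of outbred laboratory rats, polyadenylated RNA was sequenced, and the labels used here give no treatment, behaviour, age, sex or genotype. Of 93 samples 92 had a column, and the 49 libraries used here are those in which the gene Nif3l1 held under 20% and the genes LOC120093067 and Zfp532 together under 10% of the counts.

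Potassium channels let potassium leave or enter a cell and so set its resting potential, the shape of its action potentials and how fast it can fire. Voltage-gated channels (letters A to D, H and Q, with the silent subunits F, G, S and V) open on depolarisation, inward rectifiers (J) and tandem-pore leak channels (K) act near rest, and others open on calcium (M and N) or sodium (T). In the brain most of these genes serve neurons, while Kcnj10 and Kcnj16 encode the inward rectifier with which astrocytes take up potassium.

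The 49 libraries held 9.55 to 50.2 M estimated counts (M, 1000000; median 19.2 M), and 23690 to 28273 genes were above 0 in them. Sample identifiers fall into number series, and 7 of the libraries used came from series B, 16 from C, 12 from D, 7 from E and 7 from F. The labels do not say what a number series means. Series differed in depth, with median totals of 23.4, 16.4, 13.8, 28.2 and 24.997 M. All 10 markers of RMTg inhibitory neurons passed the filter, and Gad1, which makes GABA, lay at a lowest, median and highest level of 234, 453 and 567 CPM. Markers of neighbouring and other cells were present as well: 10 of 10 dopaminergic, 4 of 4 serotonergic, 10 of 10 oligodendrocyte, 10 of 10 astrocyte, 10 of 10 microglia, 6 of 6 endothelial and 6 of 6 mural genes passed. The samples are bulk tissue, so fewer cells of a type and less RNA per cell cannot be told apart.

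Every subfamily letter except F and U had at least 1 member past the filter. Of the pore-forming A subfamily and its beta subunits 9 of 11 passed, of B 2 of 2, C 4 of 4, D 3 of 4, H 7 of 8 and Q 4 of 5. Of the silent subunits F, G, S and V 0 of 1, 4 of 4, 3 of 3 and 2 of 2 passed, and of the small accessory subunits E and I 3 of 5 and 4 of 4. Among inward rectifiers 12 of 15 passed and among tandem-pore channels 9 of 14. Calcium-activated and related genes passed in 4 of 5 (M), 4 of 4 (N) and 0 of 1 (U) cases, sodium-activated channels (T) in 2 of 2, and Kcnrg passed too. Levels are not adjusted for transcript length, so they are given gene by gene and do not rank one gene against another.

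Expression is given below as the lowest, median and highest CPM over the 49 libraries. Kcna6, a delayed rectifier subunit, had 158, 206 and 257 CPM, and Kcna1, the axonal subunit whose loss causes episodic ataxia and seizures, had 126, 173 and 253 CPM. Kcna2, its usual partner in axons, had 57.4, 80.9 and 118 CPM. Their SDs were 0.14, 0.23 and 0.19 log2 units, and all 3 were above 50 CPM in every library. Among the other voltage-gated genes Kcnc2, of the fast-gating C subfamily, had 24.01, 70.3 and 95.8 CPM. Kcnd3, which carries A-type current, had 53.5, 72.8 and 114 CPM, and Kcnip4, a calcium-binding partner of the D subfamily, 57.7, 108 and 144. All of these were above 1 CPM in 49 of 49 libraries. Kcnh5, an ether-a-go-go channel, had 14.8, 35.8 and 51.8 CPM. Kcnq1, best known from the heart, had 57.8, 94.8 and 173 CPM, and Kcnq3, a subunit of the neuronal M-current, had 39.1, 52.7 and 69.4. The highest library thus stood under 2 times the lowest for Kcnq3 and above it for Kcnq1.

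The inward rectifier gene Kcnj10 had 78.2, 122 and 162 CPM and its glial partner Kcnj16 26.4, 51.9 and 68.1. The G-protein-gated subunit Kcnj6 had 22.7, 34.9 and 45.3 CPM, Kcnj3 10.3, 14.4 and 21.7, Kcnj9 3.38, 6.55 and 14.5 and Kcnj5 1.15, 3.003 and 7.41. The tandem-pore gene Kcnk1 had 26.3, 47.7 and 70.8 CPM. Its subfamily ran down to Kcnk6 with a median of 0.93 CPM. Kcnma1, the large-conductance calcium-activated channel, had 44.8, 76.4 and 97.4 CPM, and Kcnn2, a small-conductance one, 12.4, 19.2 and 25.1. Kcnt1, opened by sodium, had 18.7, 31.9 and 62.8 CPM. Medians of the silent subunits were low in CPM (Kcng4 5.88, Kcns3 4.70, Kcnv1 5.73), as was that of Kcne2 (2.37). Kcnrg had 43.5, 60.6 and 76.5 CPM.

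**Figure D1:**
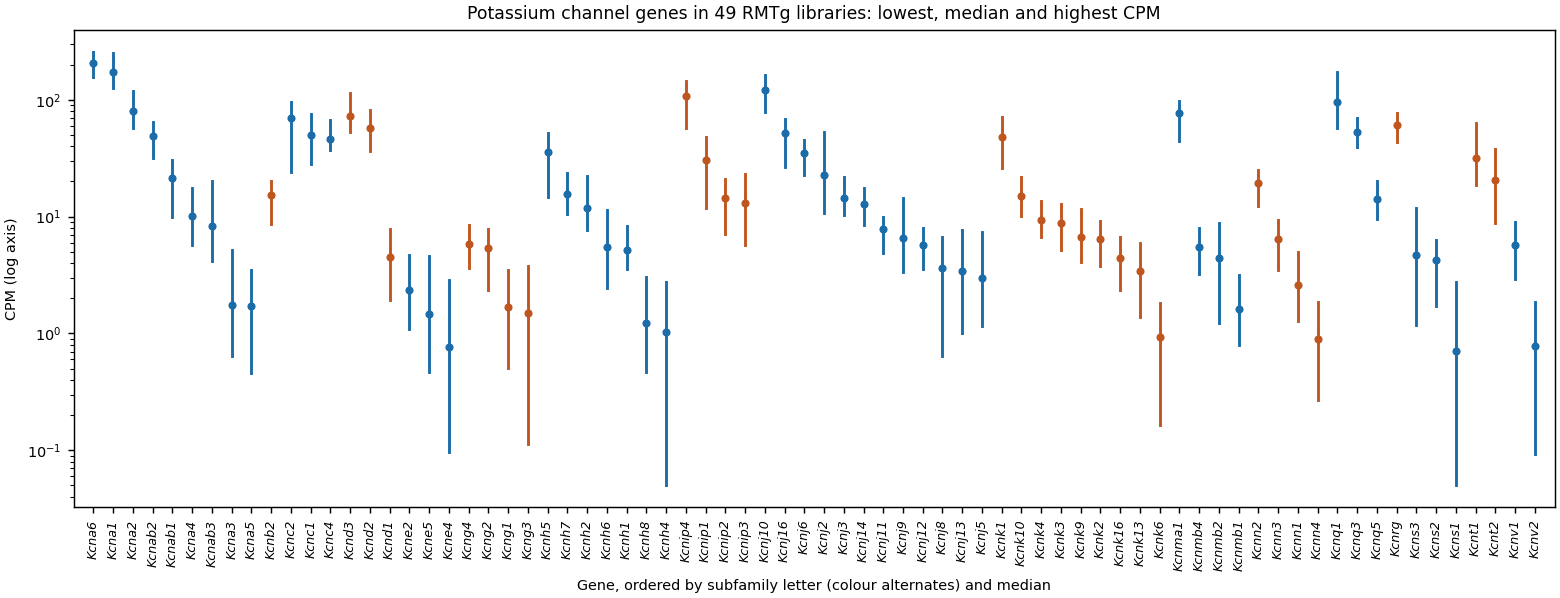
Level of potassium channel genes past the filter in 49 RMTg libraries. Lines run from the lowest to the highest CPM (log axis), points are medians, genes are ordered by subfamily letter and values of 0 (the lowest of Kcnh4 and Kcns1) are drawn at 0.05. Most lines are short against the range between genes: Kcna6 spans 158 to 257 CPM.

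Of the 18 genes under the filter 13 did not reach 1 CPM in any library. Kcnu1, the sperm channel, was listed at 0 in 49 of 49 libraries, and Kcna10 in 48. Just inside the filter stood Kcns1, at 1 CPM or more in 14 libraries (28.6%), and just outside it Kcnf1, in 7 (14.3%), and Kcnk15, in 6 (12.2%).

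Potassium channel genes varied between rats about as much as other genes of their level. The SD of the 77 genes over libraries ran from 0.14 to 0.47 log2 units with a median of 0.30, against 0.29 for all 18749 genes past the filter. After the trend of SD on level was removed, their median stood at percentile 48.4 of all genes, and 43 of 77 lay under the trend. Among the genes farthest above it were Kcnip3 (percentile 91.7), Kcnj8 (88.9), Kcnq1 (88.9), Kcne5 (88.4) and Kcng3 (87.8). Kcnip3, a calcium sensor, had 5.74, 13.1 and 23.2 CPM. Kcnj8, the pore of the vascular ATP-sensitive channel, had 0.64, 3.63 and 6.67. No wide gap divided the libraries into larger sets. Among gaps between neighbouring sorted values with at least 5 libraries below and more than 5 above, the widest of any member past the filter was 0.23 log2 units. Gaps nearer the ends, which set off a few outlying libraries, were left out of this search.

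To describe how the channel genes moved with the cell make-up of a sample, each was tested for a slope on 10 marker scores. A score is the mean z-scored log2(CPM+1) of a marker list, in SD units over the libraries, and a slope is in log2(CPM+1) per SD of the score, with identifier series as a covariate. Slopes were tested with limma and adjusted by Benjamini-Hochberg over all genes past the filter, and a gene rose or fell when the adjusted p was under 0.05. The p-values measure the spread between these libraries, and slopes on log2(CPM+1) understate the change of genes of low level.

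Kcnab3, Kcnab2, Kcna1, Kcnc1 and Kcnt1 were among the channel genes that rose with the neurofilament score, made of Nefh, Nefm, Nefl and Ina, the structural proteins of large axons. Of the 77 genes 16 rose (20.8%), against a background of 12.6% of all genes, and 2 fell (2.6%), against 5.14%. The median slope of the 77 was 0.06, against 0.03 for all genes tested. Kcnab3, a beta subunit that binds A-subfamily channels, had a lowest, median and highest level of 4.20, 8.29 and 20.1 CPM. It rose by 0.30 ± 0.04 log2 units per SD (SE, n = 49; limma adjusted p = 2.15e-06), with the same sign in 5 of 5 series. Its relative Kcnab2 had 31.9, 49.3 and 64.6 CPM and rose by 0.16 ± 0.03 (limma adjusted p = 0.000153), again in 5 of 5 series. These beta subunits thus had positive slopes in every series, whereas the remaining one, Kcnab1, was not called (0.06 ± 0.05, limma adjusted p = 0.346). Kcna1 rose by 0.15 ± 0.03 (limma adjusted p = 0.000534). Kcnc1, a fast-gating channel of neurons that fire at high rates, had 27.99, 50.4 and 75.1 CPM and rose by 0.19 ± 0.04 (limma adjusted p = 0.00148). Kcna1 and Kcnc1 rose in 5 of 5 series. Kcnt1 rose by 0.17 ± 0.04 (limma adjusted p = 0.00276), in 4 of 5, and was not called without the 5 libraries least correlated with the others (0.12, limma adjusted p = 0.0622).

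Other genes that rose and are reported here, among them Kcnk3 and Kcnh1, had slopes from 0.06 to 0.15. The rises that stayed called without the 5 least correlated libraries numbered 9, against 1.32% of all genes. Kcnk3 (0.11, limma adjusted p = 0.111) and Kcnh1 (0.12, limma adjusted p = 0.126) were not among them. The falls were those of the astrocyte gene Kcnj16, by -0.12 (limma adjusted p = 0.0113), and of Kcnh5, by -0.11 (limma adjusted p = 0.0435), each with that sign in 4 of 5 series. Without the 5 least correlated libraries neither fall was called (Kcnj16 -0.04, limma adjusted p = 0.536, and Kcnh5 -0.05, limma adjusted p = 0.393). Markers of other cells moved with the same score: 5 of 10 astrocyte and 6 of 10 dopaminergic genes fell, and 1 of 10 RMTg inhibitory genes rose. The summed neurofilament markers ran from 327 to 746 CPM, the summed astrocyte markers from 3424 to 5647 and the summed dopaminergic markers from 253 to 1828. With all 10 scores in one limma fit, 10 genes rose and 1 fell with the neurofilament score, against 7.08% and 3.04% of all genes. In that fit Kcnab3 (0.32) and Kcnab2 (0.17) stayed called, whereas Kcnc1 (0.05, adjusted p = 0.42) and Kcna1 (0.08, adjusted p = 0.09) did not. Scaling by median-of-ratios size factors left 8 rising and 0 falling (2.23% and 2.88% of all genes), and leaving out the 2 libraries with the most extreme scores likewise left 8 and 0 (1.88% and 1.6% of all genes).

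The sequences upstream of 4 genes are shown because at least 1 slope of each kept the call under every alternative run (Kcnab3 and Kcnab2 with the neurofilament score, Kcnc1 with the astrocyte and dopaminergic scores, Kcnj10 with the astrocyte and oligodendrocyte scores) and because the windows end at the positions that the expression table gives. They are the 250 bases before the start of a transcript, read on the gene's strand from RefSeq's annotation of GRCr8, with matches to the GC box GGGCGG on either strand, a binding motif of Sp-family factors, in capitals. Kcnc1 lies at chr1:106038997-106039246 (+ strand), Kcnab3 at chr10:54546388-54546637 (+), Kcnab2 at chr5:168270761-168271010 (- strand) and Kcnj10 at chr13:87334260-87334509 (+).
Kcnc1: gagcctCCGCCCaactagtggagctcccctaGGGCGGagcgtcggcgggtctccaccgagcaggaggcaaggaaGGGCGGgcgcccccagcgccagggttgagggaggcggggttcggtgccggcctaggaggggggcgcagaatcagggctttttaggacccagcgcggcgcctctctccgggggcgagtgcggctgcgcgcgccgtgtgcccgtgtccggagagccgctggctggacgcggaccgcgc
Kcnab3: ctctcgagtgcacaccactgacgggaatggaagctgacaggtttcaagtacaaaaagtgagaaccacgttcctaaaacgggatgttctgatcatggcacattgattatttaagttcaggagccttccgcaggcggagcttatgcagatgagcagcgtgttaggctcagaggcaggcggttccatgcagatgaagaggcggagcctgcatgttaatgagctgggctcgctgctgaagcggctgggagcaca
Kcnab2: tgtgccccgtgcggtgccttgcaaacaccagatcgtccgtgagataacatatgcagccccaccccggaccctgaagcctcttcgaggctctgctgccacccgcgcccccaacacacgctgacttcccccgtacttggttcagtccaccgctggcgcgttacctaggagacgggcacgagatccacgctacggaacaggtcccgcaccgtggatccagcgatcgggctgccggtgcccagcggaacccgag
Kcnj10: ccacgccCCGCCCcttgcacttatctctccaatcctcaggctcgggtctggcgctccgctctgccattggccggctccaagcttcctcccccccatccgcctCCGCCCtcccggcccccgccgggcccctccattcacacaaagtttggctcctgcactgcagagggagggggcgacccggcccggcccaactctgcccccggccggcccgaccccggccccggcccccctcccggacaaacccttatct

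The Kcnc1 window holds 3 GC boxes and 30 CG dinucleotides and is 74.4% G and C. Kcnj10 has 2 GC boxes, 20 CG dinucleotides and 72.4% G and C, Kcnab2 has 0, 24 and 65.2%, and Kcnab3 has 0, 11 and 52.8%. Kcnab2 and Kcnab3 thus have no match to the letters of the GC box in these windows, and Kcnc1 and Kcnj10 do. Kcnab2, Kcnab3 and Kcnc1 all rose with the neurofilament score. The genes shown were chosen for their called slopes, so whether a match goes with a slope was not tested. Windows that end at the table's position were found for 21 of the 77 genes. Of these 21 windows 12 (57.1%) hold a GC box, against 30.5% of all 33469 windows of this length. The 21 come from genes past the expression filter without repeats of a gene, whereas the 33469 were not restricted in either way. This comparison and those that follow therefore cannot show a trait of potassium channel genes. The TATA box TATAAA was found in 0 of 21, against 12.9% of all windows, and the cyclic AMP response element TGACGTCA in 0 of 21, against 1.59%, all searched on both strands with no overlap between the motifs. The median window of the 21 had 16 CG dinucleotides and 66.8% G and C, against 5 and 51.2% over all windows.

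Kcnj16 and Kcnj10, the inward rectifier genes of astrocytes, rose with the astrocyte score, and Kcnc1 and Kcna1 fell. Of the 77 genes 6 rose (7.79%) and 5 fell (6.49%), against 11.8% and 11.9% of all genes. Kcnj16 rose by 0.15 ± 0.03 log2 units per SD (limma adjusted p = 0.000132) and Kcnj10 by 0.11 ± 0.02 (limma adjusted p = 0.00104), each in 5 of 5 series. The lowest and highest levels given above for these 2 genes show that both were detected in every library. Kcnc1 fell by -0.22 ± 0.04 (limma adjusted p = 3.99e-05) and Kcna1 by -0.13 ± 0.03 (limma adjusted p = 0.00123). In series F, with 7 libraries, the slopes of these 2 genes were 0.25 and 0.32, opposite to those of the other 4 series. Kcnq1 (-0.13, limma adjusted p = 0.0259) and Kcns1 (-0.17, limma adjusted p = 0.0337) fell as well. Without the 5 least correlated libraries Kcna1 stood at -0.08 (limma adjusted p = 0.0669), Kcnq1 at -0.13 (0.0572) and Kcns1 at -0.06 (0.53). None of these falls was called then, whereas that of Kcnc1 was (-0.21, limma adjusted p = 0.000575). With all 10 scores in one fit Kcnq1 stood at -0.07 (limma adjusted p = 0.509).

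The remaining genes that rose with the astrocyte score were Kcnh5 (0.12, limma adjusted p = 0.0141), Kcnk1 (0.10, limma adjusted p = 0.026), Kcns3 (0.17, limma adjusted p = 0.0305) and Kcnc2 (0.14, limma adjusted p = 0.0186). Kcnk1 is expressed in astrocytes as well as neurons, and Kcns3 is a silent partner of the B subfamily. Kcnc2 had a positive slope in 2 of 5 series, and without the 5 libraries least correlated with the others its slope turned to -0.016 (limma adjusted p = 0.75). Leaving out the same 5 libraries brought Kcnh5 to 0.0033 (limma adjusted p = 0.954), Kcns3 to 0.11 (limma adjusted p = 0.217) and Kcnk1 to 0.08 (limma adjusted p = 0.0793), so none of these 4 rises was called without them. With the astrocyte score 3 of 4 neurofilament markers fell, and 2 of 10 dopaminergic, 3 of 10 oligodendrocyte and 3 of 10 microglia markers rose. With all 10 scores in one fit the falls of Kcnc1 (-0.12) and Kcna1 (-0.13) stayed called, and 10 genes rose and 4 fell. With median-of-ratios size factors 6 genes rose and 10 fell.

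**Figure D2:**
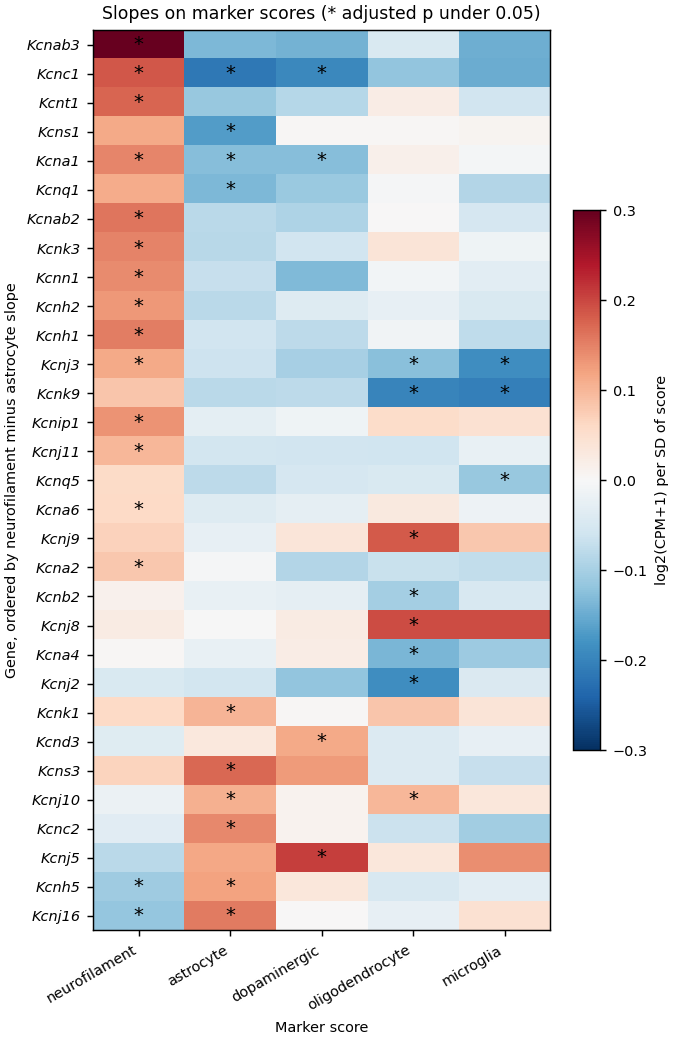
Slopes of potassium channel genes called with at least 1 of 5 marker scores, in log2(CPM+1) per SD of the score (colour), with asterisks at limma adjusted p under 0.05. Genes are ordered by their neurofilament minus their astrocyte slope, which puts Kcnc1 (0.19 and -0.22) among the first and Kcnj16 (-0.12 and 0.15) among the last.

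**Figure D3:**
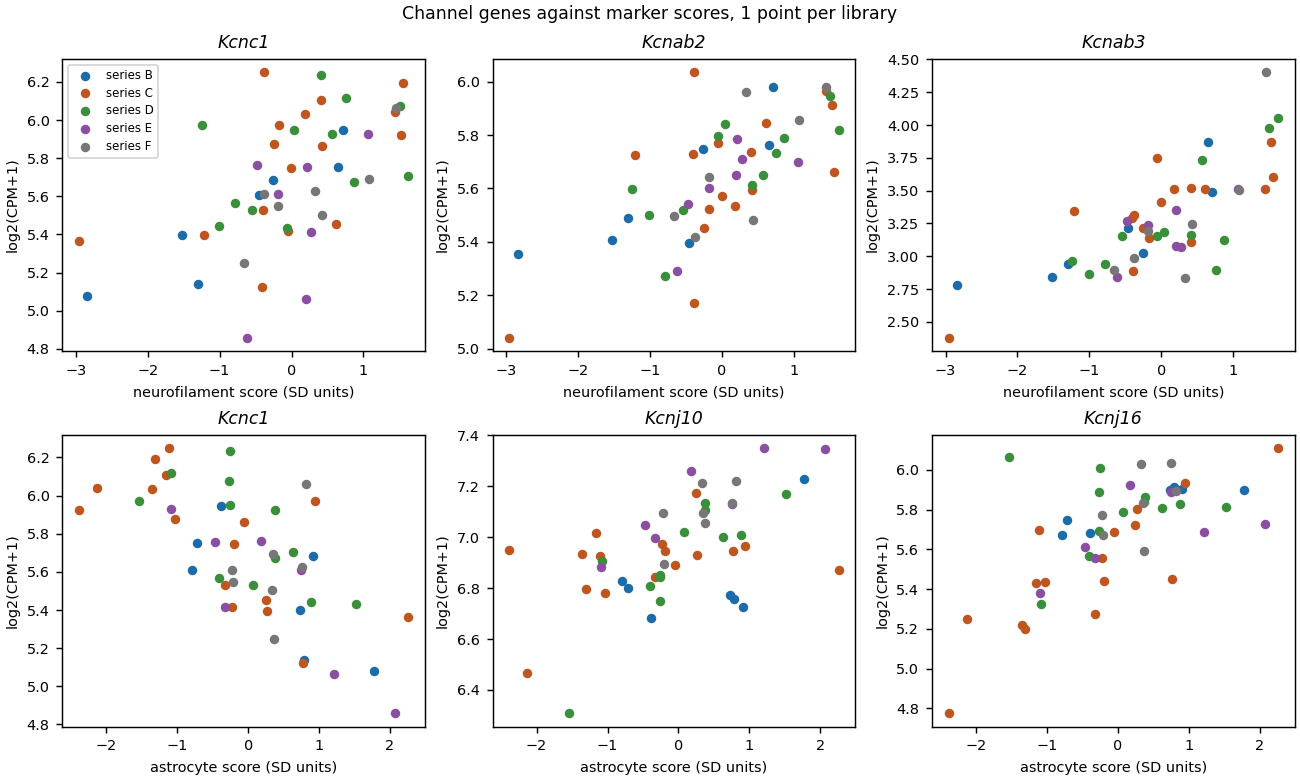
Level of Kcnc1, Kcnab2 and Kcnab3 against the neurofilament score (upper row) and of Kcnc1, Kcnj10 and Kcnj16 against the astrocyte score (lower row), in log2(CPM+1), with 1 point per library and colours for identifier series. Points rise from left to right in the upper row, and in the lower row they fall for Kcnc1 and rise for Kcnj10 and Kcnj16.

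Kcnd3 and Kcnj5 rose with the dopaminergic score, and Kcnc1 and Kcna1 fell. Of the 77 genes 2 rose (2.6%) and 3 fell (3.9%), against 1.35% and 1.81% of all genes. Kcnd3 carries an A-type current that slows the pacemaking of dopamine neurons. It rose by 0.11 ± 0.03 log2 units per SD (limma adjusted p = 0.00792). Kcnj5, a G-protein-gated subunit best known from the atrium of the heart, rose by 0.21 ± 0.05 (limma adjusted p = 0.0124). Kcnc1 fell by -0.19 ± 0.04 (limma adjusted p = 0.00231) and Kcna1 by -0.13 ± 0.03 (limma adjusted p = 0.0111). These 4 slopes had 1 sign in 5 of 5 series. The score was uneven: Th, the first enzyme of dopamine synthesis, ran from 46.5 over a median of 196 to 1067 CPM, and 1 library of series B had a score of 3.41, with the next at 1.63. That library also had the highest Kcnd3 (6.85 log2 units) and Kcnj5 (3.07) of all. With the 2 most extreme libraries on this score left out, only Kcnc1 stayed called, with Kcnd3 at 0.09 (limma adjusted p = 0.128), Kcnj5 at 0.15 (0.187) and Kcna1 at -0.13 (0.0786). With this score 2 of 4 neurofilament markers fell and 1 of 10 astrocyte markers rose. With all 10 scores in one fit 4 genes rose and 1 fell, against 1.81% and 0.502% of all genes, without a call for Kcna1 (-0.06).

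**Figure D4:**
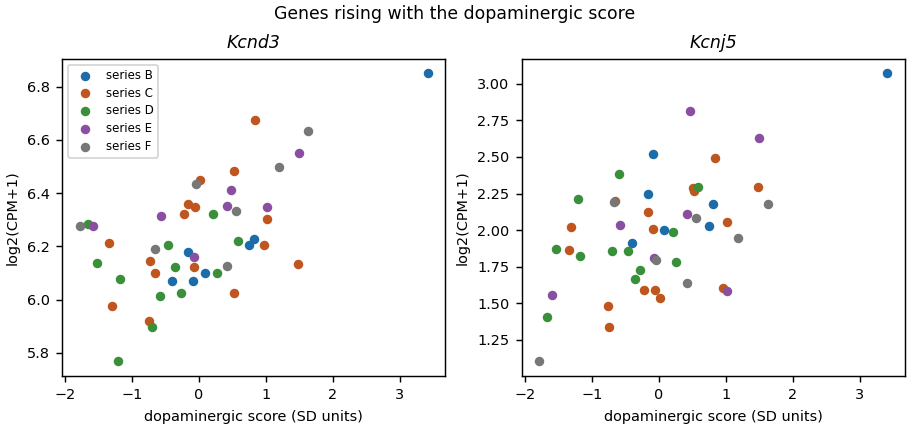
Level of Kcnd3 and Kcnj5 in log2(CPM+1) against the dopaminergic score in SD units, with 1 point per library and colours for identifier series. The single library at a score of 3.41 holds the highest value of both genes.

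With the oligodendrocyte score 3 channel genes rose (3.9%) and 6 fell (7.79%), against 13.6% and 6.8% of all genes. The risers were all inward rectifiers: Kcnj10 by 0.10 ± 0.02 log2 units per SD (limma adjusted p = 0.0033), Kcnj9 by 0.18 ± 0.05 (limma adjusted p = 0.00808) and Kcnj8 by 0.20 ± 0.06 (limma adjusted p = 0.0242). Kcnj10 and Kcnj9 rose in 5 of 5 series and Kcnj8 in 4. Kcnj10 is also made by oligodendrocytes, while Kcnj9 is a neuronal G-protein-gated subunit whose locus overlaps the protein-coding gene Igsf8. The falls included those of the leak channel Kcnk9 (-0.20, limma adjusted p = 0.00164), the strong inward rectifier Kcnj2 (-0.19, limma adjusted p = 0.00146), the A-type channel Kcna4 (-0.14, limma adjusted p = 0.0234) and Kcnj3 (-0.12, limma adjusted p = 0.0186). Kcnb2, a delayed rectifier, fell too (-0.10, limma adjusted p = 0.029). Of the 6 that fell only Kcna4 had 1 sign in 5 of 5 series. With log10 of the library total as covariate 4 channel genes rose and 2 fell, against 14.7% and 7.13% of all genes. In that fit Kcnj3 (-0.10, limma adjusted p = 0.0729), Kcna4 (-0.12, limma adjusted p = 0.0703) and Kcnb2 (-0.09, limma adjusted p = 0.0881) were not called. The summed oligodendrocyte markers ran from 33840 to 79030 CPM. With the score 3 of 10 astrocyte, 3 of 10 microglia, 3 of 6 endothelial and 2 of 6 mural markers rose and 2 of 10 RMTg inhibitory markers fell. With all 10 scores in one fit 3 channel genes rose and 1 fell, against 3.91% and 3.28% of all genes. Of the genes named here Kcnj10, Kcnj9 and Kcnj2 stayed called. Kcnj8 (0.06, limma adjusted p = 0.731), Kcnj3 (-0.03, limma adjusted p = 0.706) and Kcnk9 (-0.11, limma adjusted p = 0.273) did not, nor did Kcna4 and Kcnb2. With median-of-ratios size factors 1 rose and 7 fell, against 3.9% and 4.02% of all genes.

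With the microglia score 0 channel genes rose and 3 fell (3.9%), against 2.17% and 0.4% of all genes. Kcnj3, a common partner in G-protein-gated channels, fell by -0.19 ± 0.03 log2 units per SD (limma adjusted p = 0.00106), Kcnk9 by -0.20 ± 0.05 (limma adjusted p = 0.00687) and the M-current gene Kcnq5 by -0.11 ± 0.03 (limma adjusted p = 0.0373). Kcnk9 had 4.06, 6.74 and 11.6 CPM and Kcnq5 9.50, 14.2 and 20.2. Kcnk9 gives the acid-sensitive leak current of many neurons. Kcnj3 and Kcnk9 fell in 4 of 5 series and Kcnq5 in 5. The summed microglia markers ran from 257 to 524 CPM, and 3 of 10 oligodendrocyte and 3 of 10 astrocyte markers rose with the score while 1 of 10 RMTg inhibitory markers fell. With all 10 scores in one fit Kcnk9 (-0.14) and Kcnq5 (-0.11) were not called.

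No channel gene passed limma's test with the RMTg inhibitory score. Of all genes 0.064% rose and 0.00534% fell. An unadjusted p under 0.05 was found for 19 of the 77 channel genes and for 3120 of the 18739 genes tested. Among the channel genes of smallest p were Kcnc1 (0.18 log2 units per SD, limma adjusted p = 0.0615), Kcnj3 (0.15, 0.0729), Kcnc4 (0.10, 0.0775) and Kcnma1 (0.11, 0.0959). Of these, Kcnc4 carries a fast-gating A-type current. Without the 5 libraries least correlated with the others 7 rose, against 3.87% of all genes, and with median-of-ratios size factors 3 rose and 1 fell, against 0.358% and 0.23%. Counts were also 0 with the serotonergic, endothelial, mural and immediate early scores, where 1, 5, 5 and 7 channel genes had an unadjusted p under 0.05 in limma's test. Over all genes 1298 of 18745, 2564 of 18743, 3532 of 18743 and 1762 of 18740 were under that threshold. Of all genes 0.0107%, 0.00534%, 0.774% and 0.144% rose with these scores and 0%, 0%, 0.304% and 0.123% fell. Without series as covariate 7 channel genes rose and 7 fell with the immediate early score, against 5.51% and 8.71% of all genes in that fit. The summed markers of this score ran from 42.6 to 748 CPM.

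Of 12 genes of channel partners that do not carry a Kcn symbol, 10 passed the filter. Abcc8, the sulfonylurea receptor of neuronal ATP-sensitive channels, rose with the neurofilament score by 0.19 log2 units per SD (limma adjusted p = 0.00283). Cntnap2, which clusters A-subfamily channels along myelinated axons, rose with the RMTg inhibitory score by 0.11 (limma adjusted p = 0.0337), with 1 sign in 5 of 5 series. Dpp10, a partner of D-subfamily channels, and Lgi1, a secreted protein of synapses, rose with the astrocyte score by 0.14 (limma adjusted p = 0.00161) and 0.17 (limma adjusted p = 0.0028). Dpp10 had that sign in 3 of 5 series, and Lgi1 and Abcc8 in 4. None of the other 6 partners passed with any of the 10 scores.

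Between identifier series 1 of the 77 genes differed (1.3%), against 1.71% of all genes. In limma's F test 18 of the 77 had an unadjusted p under 0.05, a count that was not taken over all genes. The gene that differed was Kcnk1 (F = 6.14, limma adjusted p = 0.0302). Its lowest, median and highest levels were 41.7, 45.4 and 50.4 CPM in series B, 31.95, 44.8 and 58.4 in C and 26.3, 44.2 and 60.98 in D. In series E they were 50.4, 61.1 and 70.8 CPM and in series F 47.7, 54.6 and 62.4. Series E was the highest, and it overlapped with C, D and F. Kcnk1 was called with log10 of the library total as covariate and lost the call without a filter on low values. Next in order stood Kcnq5 (limma adjusted p = 0.0904) and Kcnj10 (limma adjusted p = 0.107), which did not pass.

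Genes whose products assemble or share a subfamily were compared across the 49 libraries as 27 pairs, 23 from a list of partners and 4 of members within 100000 bases of each other. Of the 27 pairs 2 passed, both positive, and with median-of-ratios size factors 4 passed, 1 positive and 3 negative. Kcnj11 and Abcc8, the pore and the receptor of the neuronal ATP-sensitive channel, gave r = 0.43 (permutation p = 0.0023, adjusted p = 0.031) and rho = 0.47 (permutation p = 0.00071, adjusted p = 0.0096), with r = 0.47 without the 2 farthest libraries. In series B, C, D, E and F r was 0.69, 0.57, 0.33, -0.60 and 0.21, and with values centred within series it was 0.40 (permutation adjusted p = 0.064).

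The other 25 pairs did not pass, and 6 of the 27 had an unadjusted permutation p under 0.05. Kcnj10 and Kcnj16, which assemble in astrocytes and both rose with the astrocyte score, gave r = 0.18 (permutation adjusted p = 0.43). Kcna1 and Kcna2 gave r = 0.11 (permutation adjusted p = 0.62), Kcnma1 and its beta subunit Kcnmb4 r = -0.18 (permutation adjusted p = 0.43) and Kcnj8 and its receptor Abcc9 r = 0.21 (permutation adjusted p = 0.42). No common movement was detectable for these partners over the 49 libraries. Kcnd2 and Kcnd3 gave r = -0.38 (permutation adjusted p = 0.062) and rho = -0.41 (permutation adjusted p = 0.035), a negative relation that r did not call, with r = -0.20 after centring within series (permutation adjusted p = 0.66). The pair was called without the 2 libraries of most extreme Kcnd2 (r = -0.46, permutation adjusted p = 0.011), without the 5 least correlated libraries (r = -0.46, permutation adjusted p = 0.021) and with size factors (r = -0.40, permutation adjusted p = 0.041). Neighbours were not called either: Kcnj9 and Kcnj10, 14217 bases apart, gave r = 0.00, Kcnmb1 and Kcnip1, 31011 bases apart, r = -0.20, Kcnj2 and Kcnj16, 70896 apart, r = 0.18 and Kcna2 and Kcna3, 72422 apart, r = 0.08.

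All 2926 pairs of the 77 genes were then compared, a choice made after seeing the data. At an adjusted permutation p under 0.05 for r, 229 pairs passed, 201 positive and 28 negative, and 653 had an unadjusted p under 0.05. Pairs of other genes were not compared, so these counts cannot be read as particular to channel genes. With median-of-ratios size factors 208 passed, 149 positive and 59 negative, and 166 of them were among the 229. The median r was 0.06. Of the 8 pairs of largest absolute r, each of the first 7 had a permutation p of 1e-05 for r and for rho, the lowest value reachable with 100000 permutations (adjusted p = 0.0012 and 0.0014). Among them was the pair of Kcna1 and Kcnc1 (r = 0.72, rho = 0.74). Without the 2 farthest libraries r was 0.69, and in series B, C, D, E and F it was 0.84, 0.73, 0.41, 0.78 and 0.91. Both genes also fell with both the astrocyte and the dopaminergic score.

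Among the same 8 pairs Kcnd2, an A-type channel of dendrites, Kcnq3, Kcnma1 and the slowly gating Kcnh8 moved together. Kcnd2 and Kcnq3 gave r = 0.74 and rho = 0.72, Kcnq3 and Kcnma1 r = 0.72 and rho = 0.76, Kcnd2 and Kcnma1 r = 0.71 and rho = 0.72 and Kcnd2 and Kcnh8 r = 0.70 and rho = 0.69. Without the 2 farthest libraries these were 0.72, 0.74, 0.69 and 0.66. Within series B to F Kcnd2 and Kcnq3 gave 0.83, 0.85, 0.65, 0.25 and -0.03, and the relation was thus smaller in series E and near 0 in series F. Kcnq3 and Kcnma1 gave 0.86, 0.76, 0.72, 0.83 and 0.10, Kcnd2 and Kcnma1 0.83, 0.75, 0.33, 0.70 and 0.31 and Kcnd2 and Kcnh8 0.52, 0.76, 0.23, 0.82 and 0.49. None of the 4 genes was called with any of the 10 marker scores. The last pair, Kcnh5 and Kcnc2, had r = 0.68 (permutation p = 4e-05, adjusted p = 0.0029) but rho = 0.35 (permutation p = 0.015, adjusted p = 0.12). Without the 2 farthest libraries r was 0.32, so its size depended on those libraries. With no library left out, r within series B to F was -0.13, 0.94, 0.82, -0.43 and -0.49. Kcnma1 was in 17 called pairs.

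**Figure D5:**
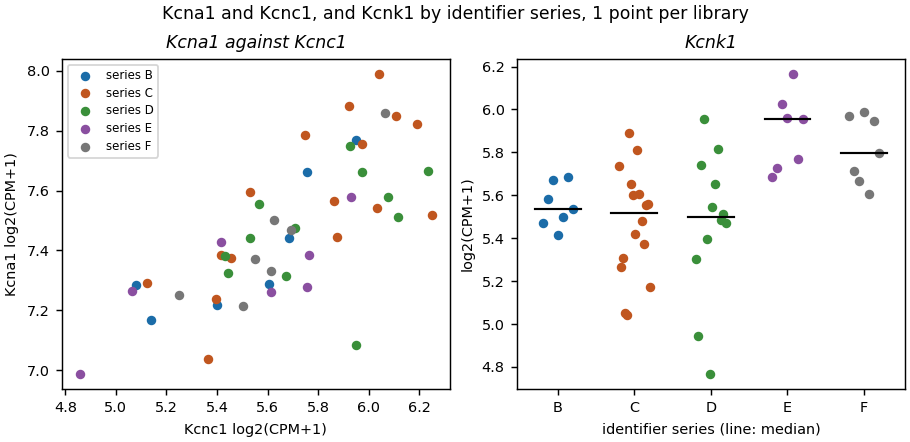
Kcna1 against Kcnc1 (left) and Kcnk1 by identifier series with the median as a line (right), all in log2(CPM+1), with 1 point per library and colours for series. Points of all series lie along 1 rising band for Kcna1 (r = 0.72), and Kcnk1 has its highest median in series E.

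All 95 genes were found in the RefSeq gene table of GRCr8, and the position in the expression table equals an end of the entry for 95 of 95. As the table gives them, Kcnc1 lies on chromosome 1 at 106039247, Kcna1 on chromosome 4 at 161160051, Kcnab3 on 10 at 54546638 and Kcnab2 on 5 at 168270760. Kcnj10 lies on chromosome 13 at 87334510, Kcnj16 on 10 at 96489329, Kcnd3 on 2 at 195626316, Kcnj5 on 8 at 39011197 and Kcnk1 on 19 at 70856985. Of the 77 genes 35 overlap another annotated gene, 11 of them a protein-coding one, among them Kcnab2 (Nphp4), Kcnj13 (Gigyf2) and the pair Kcnmb1 and Kcnip1. Whether the counting used strand is not stated, so reads of overlapping genes may be mixed in these values.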

How the data were processed

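The authors deposited 1 table of log2 values with 38354 genes. Per the submitters' processing notes, kallisto 0.48 was used. The genome build is not given in the sources used here. From the values, each deposited entry is log2 of an estimated count plus 1: after back-transformation 49.98% of those between 0 and 20 came out whole within 0.01. Neither depth nor transcript length had been removed, and no transcript length was used here.

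Values were back-transformed. Libraries were kept by the rule given above, which left out 43 of 92. In the 49 kept, LOC120093067 and Zfp532 took at most 5.50% of the counts, and at least 19.8% in 32 left out; Nif3l1 took at most 0.0017%, and at least 28.8% in the other 11. One kept library carries an identifier that its label says was corrected. A gap of over 50000 between neighbouring identifiers started a new series. Counts were divided by the library total to give CPM, and log2(CPM+1) was used, with a filter of at least 1 in 20% of libraries, which left 18749 genes. A log2(CPM+1) of 1 is 1 CPM.

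Slopes and series were tested with the moderated tests of limma 3.58.1 under R 4.3.3, with a trend of variance on mean (two-sided for slopes), and pairs with two-sided permutation tests (100000 permutations) in Python 3.11.15 with NumPy 2.4.6, all with Benjamini-Hochberg adjustment. Marker genes were left out of the count with their own score. The slope procedure was tested on simulated data with normal values drawn independently for each gene. That setting holds no correlation between genes and no series differences, so it does not show how far the calls hold in these libraries. The text names, per score, up to 6 called genes of smallest p in each direction, the 6 genes of largest residual SD, the gene of highest median per subfamily, and members of the lists and pairs; Kcnk15, Kcnk3, Kcnh1 and genes named for their annotation were chosen after their values were seen. Members, lists and tests were chosen with earlier results of these data known. Alternatives changed the covariates (no series, log10 of the total, all 10 scores in one fit), the libraries, the scaling, the pseudocount (0.5) and the filter. Some genes that enter the counts are not reported here by name. Sequences are from RefSeq's GRCr8 tables; 52 of the 77 genes had a window there.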

Additional observations from a re-analysis of the deposited data

Results flagged for a closer look

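Of the 43 libraries left out, 32 are dominated by LOC120093067 and Zfp532 and 11 by Nif3l1. Potassium channel genes were detected there too, above the 3 counts that a count of 0 allows (counting error only). In the 32 libraries, with totals of 2.29 to 13.7 M estimated counts, 69 of the 95 genes had a median above 3 estimated counts. In the 11 libraries, with totals of 1.72 to 8.43 M, 14 of 95 did. These libraries enter no comparison.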

How the results depend on the processing

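Of 46 slopes called, 9 kept the call under all 8 alternatives, among them Kcnab2 and Kcnab3 with the neurofilament score, Kcnc1, Kcnj10 and Kcnj16 with the astrocyte score, Kcnc1 with the dopaminergic, Kcnj10 with the oligodendrocyte and Kcnj3 with the microglia score. Over all alternatives 273 slope values stayed called, 94 kept the sign without the call, and 1 changed sign (Kcnc2 with the astrocyte score, -0.016 without the 5 least correlated libraries). The cause was not tested for any change that follows. The shares of all genes called could move too. Without the 5 least correlated libraries 1.32% of all genes rose and 0.891% fell with the neurofilament score, against 12.6% and 5.14% as reported. With the microglia score these shares were 7.39% and 2.05%, against 2.17% and 0.4%. Without the 2 most extreme libraries 0.475% rose and 0.326% fell with the dopaminergic score, against 1.35% and 1.81%. Without series as covariate the counts were 1 for the RMTg inhibitory (0 as reported), 5 for the microglia (3), 1 for the mural (0) and 14 for the immediate early score (0). With the 2 most extreme libraries on the score left out they were 1 for the dopaminergic (5), 8 for the neurofilament (18) and 5 for the microglia score. Without the 5 least correlated libraries they were 7 for the RMTg inhibitory, 9 for the neurofilament and 7 for the microglia score and 4 between series (1). With median-of-ratios size factors they were 4 for the RMTg inhibitory score, 8 for the neurofilament score, 2 between series and 4 called pairs, 3 of them negative (2, both positive). With all 10 scores in one fit they were 11 for the neurofilament and 4 for the oligodendrocyte score (9). With no filter the count between series was 0, and centred within series 1 pair passed. Members past the filter numbered 72 with 50% of libraries required and 77 with size factors. All other counts stayed within 1.5 times, but the genes behind a similar count could differ. With the astrocyte score and without the 5 least correlated libraries 2 rose and 7 fell, against 5.14% and 4.29% of all genes. Of these channel gene calls 4 were among the 11 reported. With the oligodendrocyte score and log10 of the total as covariate 4 rose and 2 fell, and 5 of these calls were among the 9 reported. No paired analysis was possible because the labels give 1 group and no replicate numbers. Genes near 1 CPM rest on few counts: the median of Kcns1 was 13.2 estimated counts.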

Other observations

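Kcnk15, a tandem-pore gene that did not pass the filter, had the most uneven values among the genes under it. It was listed at 0 in 23 of the 49 libraries, with a median of 0.089 CPM, and 6 libraries stood at 1 CPM or more. The highest had 5.03 CPM, the second 2.91 and the lowest of the 6 1.04, with the next library at 0.76. The 6 were spread over series C, D and E, with 2 in each. Kcnf1, with 7 libraries at 1 CPM or more, had no such tail: its highest library had 1.21 CPM and the second 1.12.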
